A study of Mus musculus with 6 samples.

Results

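Transcripts of 10 genes that mark endothelial cells, the cells lining blood vessels, were measured in whole submandibular glands (SMGs) of adult female mice. The genes were Pecam1, Cdh5, Kdr, Flt1, Tek, Tie1, Emcn, Plvap, Vwf and Eng. They were taken by name from the unfiltered count table, in which all 10 had a row among 43280, and all 10 were among the 18606 rows with enough counts to be tested. The series compared 3 glands from wild-type (WT) mice with 3 from mice lacking the heparan sulfate 3-O-sulfotransferases Hs3st3a1 and Hs3st3b1 (labelled Hs3st3a1;3b1 DKO), all female. The mice descend from C57BL/6 stock, the DKO chromosome carries a zinc finger nuclease frameshift deletion in exon 1 of Hs3st3a1 together with a LacZ cassette at Hs3st3b1, and WT animals were littermates. Exact ages and the founder line of each gland were not given in the sources used here.

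Endothelial cells receive most of their growth and survival signals through a small set of surface receptors. VEGF ligands bind the receptor tyrosine kinases encoded by Kdr and Flt1, and angiopoietins bind the receptor encoded by Tek, with Tie1 as its partner. Heparan sulfate at the cell surface binds several VEGF forms. In salivary glands, dense capillaries around acini and ducts supply the water and ions of saliva.

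The deletion did not show in gene counts. Hs3st3b1 had 173, 203 and 261 counts in WT 1, 4 and 5, and 255, 120 and 189 in DKO 1, 4 and 5. Hs3st3a1 had 15, 11 and 15 counts against 11, 8 and 13. Counts per gene do not show where along a gene the reads fall, and the reason for these counts was not tested, so they do not check the labels. Every direction given here therefore rests on the labels, as DKO relative to WT. Total counts were 23674258 to 29611975 per library. The 10 most abundant rows took 57.9% to 61.9% of the counts in WT and 62.6% to 66.2% in DKO, so the remaining genes shared a smaller part of the reads in DKO. Markers of acini, ducts and myoepithelial cells were present in every library. Library WT 5 stood apart in Dcpp1, with 6592 normalized counts against 13.9 to 454 in the others. The abundant acinar transcript Smgc had 292306, 24599 and 186101 normalized counts in WT 1, 4 and 5, so WT 4 stood apart within its group. In DKO 1, 4 and 5 it had 36565, 117664 and 18428.

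None of the 10 endothelial genes passed the test between the groups. Of the 10, 9 had a positive log2 fold change, from 0.04 to 0.44, and Vwf, the gene of von Willebrand factor, had a negative one of -0.43. Their median was 0.17, beside 0.00 over all rows tested. With the DESeq2 Wald test, 0 of 10 had an adjusted p-value under 0.05, beside 2.9% of all rows in either direction and 1.88% lower in DKO, and edgeR and limma-voom also called 0. At an unadjusted p-value under 0.05 there were 4 of 10 (Pecam1, Kdr, Plvap and Vwf), beside 12.2% of all rows, with 5 by edgeR and 4 by limma-voom. Normalized counts of the groups did not overlap for 4 of 10 (Pecam1, Cdh5, Plvap and Vwf), beside 20.3% of all rows. Higher without overlap were 3 of 10, beside 9.85%, and lower was 1 of 10, beside 10.5%. The signs depended on the scaling. With total counts as size factors, which moved the median of all rows by -0.23, Flt1, Tek, Tie1, Emcn and Eng turned negative and the median of the 10 was -0.06. In bulk tissue, a difference in the number of endothelial cells and one in RNA per cell cannot be told apart.

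**Figure D1:**
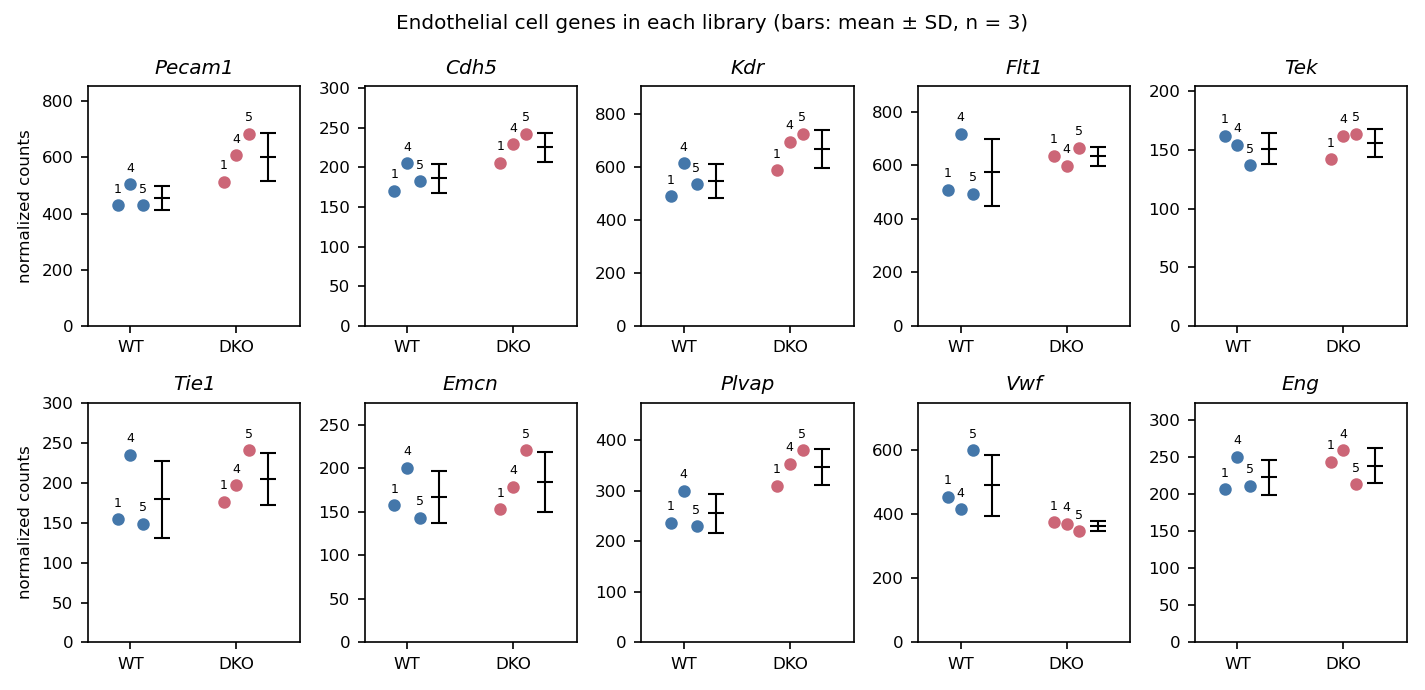
Normalized counts (DESeq2 size factors, linear axes from 0) of the 10 endothelial cell genes in each library, with the library number above each point and the mean ± SD (n = 3) beside each group. WT 4 lay above WT 1 and WT 5 for Pecam1, Cdh5, Kdr, Flt1, Tie1, Emcn, Plvap and Eng, whereas Vwf ran the other way, with WT 5 highest at 598.

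The adhesion molecules of endothelial junctions are encoded by Pecam1 and Cdh5. Pecam1, also carried by platelets and leukocytes, lies on chromosome 11 (106654217 to 106750628, minus strand, GRCm38). Its normalized counts were 430.5, 505 and 429.9 in WT 1, 4 and 5, and 513, 608 and 684 in DKO 1, 4 and 5. All DKO libraries were higher than all WT libraries, although DKO 1 exceeded WT 4 by little. The log2 fold change was 0.40 (standard error 0.15, 95% interval 0.11 to 0.69, adjusted p = 0.110 by DESeq2). Without DKO 1 it was 0.51 and passed the threshold (adjusted p = 0.0231 by DESeq2), and without DKO 5 it was 0.30 (adjusted p = 0.536 by DESeq2). Cdh5 (chromosome 8, 104101625 to 104144511, plus strand) encodes VE-cadherin, which is nearly restricted to endothelium. It had 170.2, 205 and 183 normalized counts in WT, against 206, 229 and 242 in DKO. The groups were separated by less than 1 normalized count, between WT 4 and DKO 1. Its log2 fold change was 0.28 (standard error 0.17, 95% interval -0.06 to 0.61, adjusted p = 0.532 by DESeq2).

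The VEGF receptors differed from each other in spread. Kdr, which encodes the main signalling receptor VEGFR2 (chromosome 5, 75932827 to 75978458, minus strand), had 491, 615 and 535 normalized counts in WT, against 588, 696 and 725 in DKO. Only WT 4 reached into the DKO range. The log2 fold change was 0.29 (standard error 0.14, 95% interval 0.02 to 0.56, adjusted p = 0.310 by DESeq2). Flt1 encodes VEGFR1, which binds VEGF tightly, also as a soluble form that counts per gene cannot separate from the membrane form. It lies on the same chromosome (147561604 to 147726011, minus strand) and had 509, 717 and 494 normalized counts in WT, against 636, 598 and 665 in DKO. The highest library was WT 4, so the groups overlapped, and the SD was 125 in WT against 33.8 in DKO. The log2 fold change was 0.14 (standard error 0.16, adjusted p = 0.818 by DESeq2) and 0.34 without WT 4 (adjusted p = 0.148 by DESeq2). It was 0.048 without WT 5 (adjusted p = 0.998 by DESeq2).

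The angiopoietin receptor genes Tek and Tie1 both lie on chromosome 4. Tek, the gene of TIE2 (94739289 to 94874976, plus strand), had 162, 155 and 137 normalized counts in WT, against 142, 162 and 164 in DKO. Both groups covered nearly the same range, and the log2 fold change of 0.04 (standard error 0.19, adjusted p = 0.967 by DESeq2) was the one nearest to 0 of the 10 genes. Its 95% interval ran from -0.33 to 0.42. Tie1 (118471191 to 118490061, minus strand), whose product has no high-affinity ligand of its own and modulates TIE2, had 154, 236 and 149 normalized counts in WT, against 176, 198 and 241 in DKO. WT 4 was close to the highest DKO library. The log2 fold change was 0.19 (standard error 0.22, adjusted p = 0.838 by DESeq2), and 0.44 without WT 4 (adjusted p = 0.367 by DESeq2). It was 0.060 without DKO 5 (adjusted p = 0.984 by DESeq2). Eng encodes endoglin, an endothelial co-receptor for BMP and TGF-beta ligands, and lies on chromosome 2 (32646595 to 32682669, plus strand). It had 207, 250.4 and 211 normalized counts in WT, against 244, 259 and 213 in DKO, which overlapped widely. Its log2 fold change was 0.10 (standard error 0.17, adjusted p = 0.901 by DESeq2). Of its exon bases, 1.51% overlap Fpgs on the opposite strand, and the libraries were unstranded. The other 9 genes overlap no exon of another annotated gene.

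The genes tied to particular vessels or to stored products held both ends of the range. Plvap encodes a protein of the diaphragms that span the pores of fenestrated capillaries (chromosome 8, 71497765 to 71511752, minus strand). It had 237, 299 and 229 normalized counts in WT, against 309, 353 and 379 in DKO, with every DKO library above every WT library. Its log2 fold change of 0.44 was the highest of the 10 (SE 0.17, 95% interval 0.12 to 0.77, adjusted p = 0.125 by DESeq2). It passed the threshold without WT 4, at 0.58 (adjusted p = 0.0267 by DESeq2), and was 0.37 without WT 5 (adjusted p = 0.586 by DESeq2). Emcn, the gene of the capillary and venous sialomucin endomucin (chromosome 3, 137341067 to 137432185, plus strand), had 157, 201 and 143 normalized counts in WT, against 153, 179 and 220.2 in DKO. The groups overlapped, with a log2 fold change of 0.14 (standard error 0.21, adjusted p = 0.889 by DESeq2) that was -0.01 without DKO 5.

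Vwf encodes the clotting glycoprotein that endothelial cells and megakaryocytes store in granules (chromosome 6, 125546774 to 125686679, plus strand). It had 454, 416 and 598 normalized counts in WT, against 375, 370.01 and 346 in DKO. The DKO libraries lay close together and below all WT libraries, and the WT libraries were spread over a wider range, with WT 5 highest. The log2 fold change was -0.43 (standard error 0.16, 95% interval -0.75 to -0.11, adjusted p = 0.129 by DESeq2). It was -0.26 without WT 5 (adjusted p = 0.743 by DESeq2) and -0.53 without WT 4 (adjusted p = 0.0470 by DESeq2). With total counts as size factors it was -0.67 and passed the threshold (adjusted p = 0.00759 by DESeq2).

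**Figure D2:**
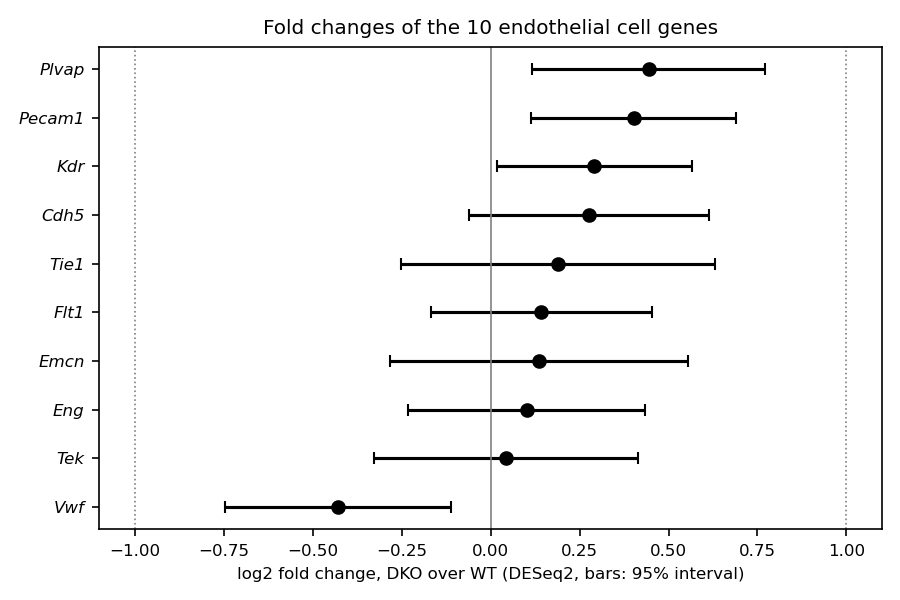
Log2 fold change of DKO over WT for each endothelial cell gene (point) with its 95% interval from the DESeq2 standard error, and dotted lines at a 2-fold change. No interval reached a 2-fold change in either direction, and Vwf at -0.43 was the only gene on the negative side with this scaling.

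Since the scaling moved all 10 genes together, Vwf was also compared with the others inside each library, a ratio that no scaling can change. This comparison was chosen after the values were seen and is a description. Vwf counts divided by the summed counts of the other 9 genes gave 0.180, 0.131 and 0.238 in WT 1, 4 and 5, and 0.126, 0.113 and 0.0979 in DKO 1, 4 and 5. The means were 0.183 ± 0.0539 (SD, n = 3) and 0.112 ± 0.0142 (SD, n = 3), a difference in mean log2 ratio of -0.67. The groups did not overlap, but WT 4 and DKO 1 nearly met. The ratio of Vwf to a single gene also separated the groups without overlap for Pecam1, Cdh5, Kdr, Tek, Plvap and Eng, and overlapped for Flt1, Tie1 and Emcn. By two-sided exact permutation tests p was 0.1 where the groups separated, the smallest that 3 against 3 allows, and 0.2 to 0.3 where they overlapped. Vwf was the only gene of the 10 with a negative log2 fold change, so lower ratios follow from choosing it. Separation was not counted for ratios or shares of other genes, and normalized counts alone did not overlap for 20.3% of all rows. As a share of the summed counts of all 10, Vwf was 15.4% ± 3.84 in WT and 10.1% ± 1.15 in DKO (SD, n = 3 each). Shares of a fixed total move against each other, and those of Plvap (7.88% ± 0.477 and 9.57% ± 0.277), Pecam1 (14.1% ± 0.339 and 16.5% ± 1.14), Kdr (16.9% ± 0.366 and 18.5% ± 0.761) and Cdh5 (5.77% ± 0.0916 and 6.22% ± 0.0564) were higher in DKO without overlap. The shares of the other 5 genes overlapped.

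**Figure D3:**
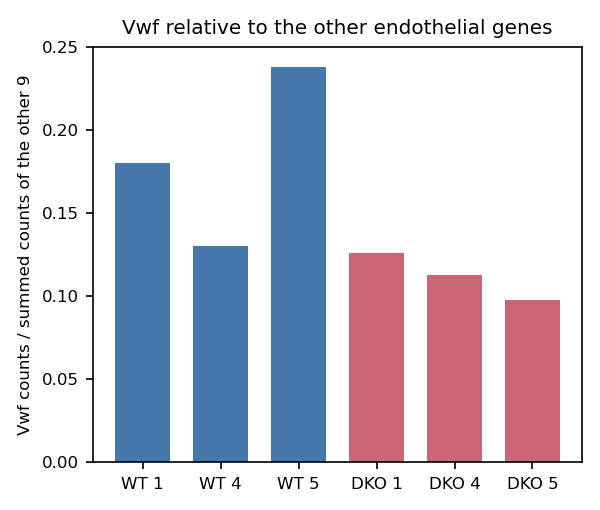
Vwf counts divided by the summed counts of the other 9 endothelial cell genes in each library (bars from 0, WT blue, DKO red, no unit). The ratio ran from 0.131 to 0.238 in WT and from 0.0979 to 0.126 in DKO.

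Other sources of Vwf and Pecam1 transcripts were looked at in the same libraries. Of 9 platelet and megakaryocyte genes, 4 had at least 10 counts in all and were tested, and Gp9, Gp1ba, Gp1bb, Treml1 and Clec1b had fewer. The summed level of the 9 was 7.86 to 8.91 CPM in WT and 3.29 to 5.73 CPM in DKO. Without Itgb3 the groups overlapped, with 3.21, 1.82 and 1.90 CPM in WT and 2.19, 1.15 and 1.08 CPM in DKO, a sum chosen after the values were seen. One gene, the integrin Itgb3, which other cells also express, fell with a log2 fold change of -0.95 (adjusted p = 0.00423 by DESeq2), a call lost under edgeR (0.118) and limma-voom (0.123), with the replicate block (0.0749), and without WT 5 (0.0878), DKO 4 (0.0523) or DKO 5 (0.0702). The platelet product Pf4 had 31.7, 6.85 and 19.7 normalized counts in WT, against 20.9, 10.5 and 4.61 in DKO, so its groups overlapped. Of 8 leukocyte genes, all tested, all had a negative log2 fold change and 2 (Adgre1 and Laptm5) were called, beside 1.88% of all rows called lower. Under edgeR (0.147 and 0.166) and limma-voom (0.200 and 0.224) both calls were lost, as they were without WT 1, WT 5 or DKO 5, and that of Laptm5 also without DKO 4, with adjusted p-values up to 0.107 for Adgre1 and 0.304 for Laptm5. Their summed level was 67.1 to 139 CPM in WT and 39.0 to 62.3 CPM in DKO, opposite in direction to Pecam1. Of 7 red cell genes, 4 were called, all of them globins and all higher, beside 189 of 18606 rows called higher. With 1 library left out, the highest adjusted p-values by DESeq2 were 0.130 (Hba-a1), 0.0103 (Hba-a2), 0.0499 (Hbb-bs) and 0.0250 (Hbb-bt). The call of Hba-a1 was thus not kept in every such fit. Over all rows, edgeR made 10 calls and limma-voom 7. The summed red cell level was 35.3 to 67.5 CPM in WT and 91.8 to 118 CPM in DKO. The part of these levels in the endothelial values was not tested.

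Levels were compared between genes per length, as RPKM, counts scaled to the library total and to the length of merged exons. Plvap had the highest level, 5.17 ± 0.503 RPKM in WT and 5.98 ± 0.366 in DKO (SD, n = 3). Pecam1 followed with 2.95 ± 0.126 and 3.30 ± 0.332 RPKM, and Kdr with 2.44 ± 0.132 and 2.54 ± 0.139. Below them in WT came Eng (2.22), Cdh5 (1.79), Flt1 (1.71), Tie1 (1.46), Tek (1.30), Emcn (1.24) and Vwf (1.24). The order in DKO was the same apart from an exchange of Tek and Emcn. In WT, library ranges of neighbours in this order overlapped for 6 of 9 pairs, and only the steps from Plvap to Pecam1, from Pecam1 to Kdr and from Eng to Cdh5 were clear of the spread. In DKO, Vwf stood alone at the bottom, with 0.723 to 0.870 RPKM against at least 1.05 for every other gene in every DKO library. Raw counts per gene and library ran from 142 (Tek, DKO 5) to 733 (Flt1, WT 4).

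**Figure D4:**
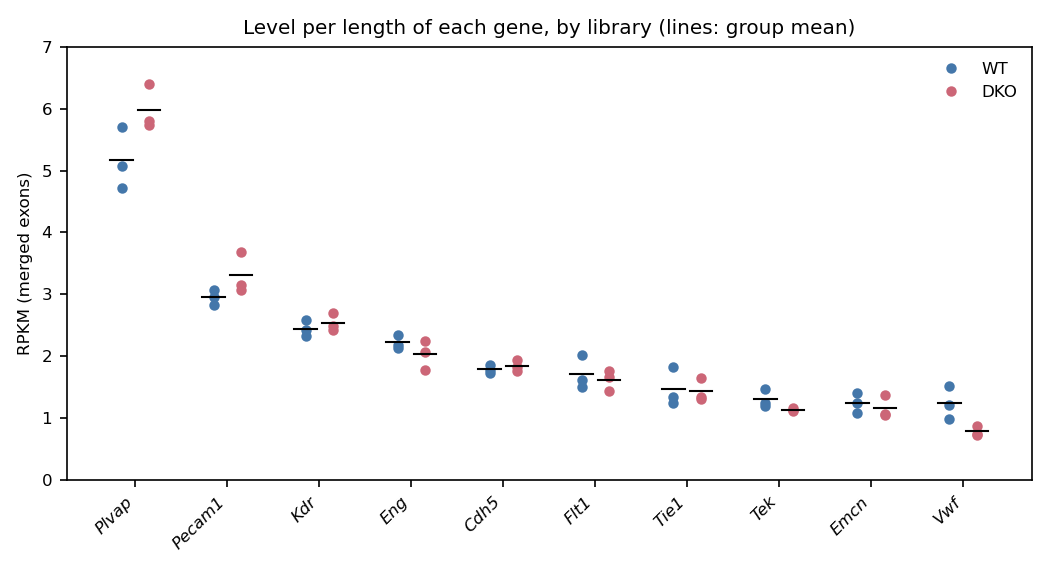
Level per length (RPKM over merged GENCODE exons, linear axis) of each gene in each library, WT blue and DKO red, with lines at the group means. Plvap was clear of the other genes in both groups, and Vwf in DKO lay below 0.870 RPKM, under all other values plotted.

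The summed level of the 10 genes depended on what it was scaled to. It was 127, 136 and 127 CPM in WT 1, 4 and 5, and 125, 118 and 130.2 CPM in DKO 1, 4 and 5. The means of 130.1 ± 5.45 and 124 ± 6.11 CPM (SD, n = 3) overlapped (exact permutation test, two-sided, p = 0.4, with 0.1 the smallest that 3 against 3 allows). After TMM scaling the means were 120.2 ± 12.1 and 135 ± 9.96 CPM, in the opposite order (exact permutation test, two-sided, p = 0.2). A test of this size could not pass 0.05 in either scaling.

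Most of the 10 genes shared a profile across libraries, and Vwf ran against it. The mean of their standardised log2 normalized counts was -0.74 in WT 1, 0.42 in WT 4 and -0.80 in WT 5, and -0.16, 0.52 and 0.77 in DKO 1, 4 and 5, in units of each gene's SD over the 6 libraries. WT 4 thus lay with DKO 4 and DKO 5. Pearson's r between each gene and the mean profile of the other 9 was 0.93 for Kdr and Plvap, 0.92 for Tie1, 0.91 for Cdh5, 0.89 for Pecam1, 0.86 for Emcn and 0.79 for Flt1. It was lower for Tek (0.44) and Eng (0.41) and -0.86 for Vwf. These are descriptions over 6 libraries that share size factors and group differences. The share of counts in the 10 most abundant rows was also lowest in WT 1 and WT 5 (57.9% and 58.5%), and its part in the shared profile was not tested.

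Among 9888 other rows with a mean of at least 100 normalized counts, the 10 most like the shared profile were Tifa, Gfod1, Klc4, Slc4a1ap, Usp33, Ap1m2, Vps4b, Isoc2b, Trim33 and Clec14a, with r from 0.98 to 0.99 over the 6 libraries. Of these, only Clec14a, a C-type lectin of endothelium, belonged to an endothelial list. An r above 0.8 was seen in 8.39% of these rows. With the same count minimum it was seen in 7 of 44 listed vascular genes, which were 4 of 9 pan-endothelial genes (Egfl7, Mmrn2, Podxl and Clec14a), the capillary gene Rgcc (1 of 6), the venous gene Ephb4 (1 of 4) and the pericyte marker Rgs5 (1 of 7). Over all tested genes of a list, every gene ran against the profile in the lymphatic (r from -0.97 to -0.64), leukocyte (-0.95 to -0.57), fibroblast (-0.88 to -0.63) and myoepithelial (-0.79 to -0.66) lists. All 7 red cell genes ran with it, with a median r of 0.75, beside 0.71 for the 15 pan-endothelial genes and 0.16 for the 9888 rows. Acinar genes had a median r of 0.65 (6 genes, -0.76 to 0.86) and duct genes one of -0.58 (6 genes, -0.61 to 0.61).

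RefSeq promoter sequences were matched for 6 of the 10 genes (Kdr, Flt1, Tek, Tie1, Emcn and Eng). Endothelial genes are known to be bound by ETS transcription factors, whose core motif is GGAA. It was found on either strand, as GGAA or TTCC, in the 250 bases before the RefSeq start of all 6, with 2 to 7 matches, but 93.4% of all 32851 promoters in the table hold it too, with a median of 3. The GATA motif GATAA was found in 0 of 6 (22.6% of all), the SOX motif ACAAT in 2 of 6 (27.7%) and the E-box CANNTG in 5 of 6 (66.2%). The GENCODE gene of Tie1 begins further upstream, so 212 bases of its window lie inside that gene, as do 11 for Emcn and 3 for Kdr. Below are the windows of Kdr, which followed the shared profile closely, and of Tek and Eng, which followed it least among the 6, 5′ to 3′ on the gene's strand, with GGAA and TTCC in capitals. They lie at chr5:75978456-75978705 (Kdr, minus strand), chr4:94739039-94739288 (Tek, plus strand) and chr2:32646345-32646594 (Eng, plus strand) in GRCm38.p6.
Kdr: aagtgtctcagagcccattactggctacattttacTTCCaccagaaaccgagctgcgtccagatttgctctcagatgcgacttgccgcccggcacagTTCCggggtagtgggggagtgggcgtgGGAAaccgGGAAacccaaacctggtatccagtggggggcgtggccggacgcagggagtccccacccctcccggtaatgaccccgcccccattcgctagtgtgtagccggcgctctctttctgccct
Tek: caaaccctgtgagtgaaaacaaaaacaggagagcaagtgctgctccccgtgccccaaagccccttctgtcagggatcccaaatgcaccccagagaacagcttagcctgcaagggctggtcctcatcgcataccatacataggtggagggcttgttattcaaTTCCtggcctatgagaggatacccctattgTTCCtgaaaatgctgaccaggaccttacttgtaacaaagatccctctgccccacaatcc
Eng: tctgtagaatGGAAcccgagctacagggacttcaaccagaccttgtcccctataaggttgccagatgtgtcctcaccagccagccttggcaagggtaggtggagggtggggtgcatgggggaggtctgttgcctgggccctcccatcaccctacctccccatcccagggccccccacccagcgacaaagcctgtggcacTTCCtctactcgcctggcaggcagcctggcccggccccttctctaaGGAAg
Kdr held 4 core matches, Eng 3 and Tek 2, and of the windows not printed Tie1 held 7, Emcn 4 and Flt1 4. The GC content was 61.6% for Kdr, 51.2% for Tek and 62.4% for Eng, beside a median of 52.4% over all promoters.

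Beyond the 10 genes, 93 other genes of blood vessels, of their signals and of neighbouring vessel types were listed, and 91 were tested. DESeq2 called 5 of 91, 2 higher and 3 lower, beside 2.9% of all rows, and the median log2 fold change was 0.05. Of the 91, 18 had an unadjusted p-value under 0.05, beside 12.2% of all rows. Without WT 4 the same test called 11, and edgeR and limma-voom each called 0 of the 91 with all libraries.

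Of 10 ligands of the endothelial receptors 8 were tested and 0 were called. Vegfa, the main ligand of the receptors encoded by Kdr and Flt1, had 1633, 1732 and 1927 normalized counts in WT, against 1691, 1913 and 1894 in DKO (log2 fold change 0.05, adjusted p = 0.919 by DESeq2). These ranges coincided almost fully. Vegfb, a ligand of VEGFR1, had a log2 fold change of 0.33 (adjusted p = 0.334 by DESeq2). Among 12 co-receptors and signalling partners, 0 were called. The most abundant were the BMP receptor Bmpr2 (-0.05, adjusted p = 0.912 by DESeq2) and Tgfbr2, a TGF-beta receptor that fibroblasts also express (-0.38, adjusted p = 0.152 by DESeq2), which passed without WT 4 (-0.49, 0.0349) and with total counts as size factors (-0.62, 0.0112). Tgfbr2 was at -0.27 without DKO 5 (adjusted p = 0.608 by DESeq2).

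Of 12 endothelial transcription factor genes, 0 were called. Epas1, the hypoxia-inducible factor HIF-2alpha, had a log2 fold change of -0.01 (adjusted p = 0.989 by DESeq2) and Ets1, which lymphocytes also express, -0.49 (adjusted p = 0.0640 by DESeq2). Ets1 passed the threshold without WT 4, at -0.62 (adjusted p = 0.00382 by DESeq2), and with total counts as size factors, at -0.73 (0.00495). It was -0.34 without WT 1 (adjusted p = 0.528 by DESeq2). Of 15 other pan-endothelial genes 0 were called and 14 had a positive log2 fold change, beside 9334 of the 18606 rows tested. Their median was 0.25, beside 0.00 over all rows. Total counts as size factors moved the median of all rows by -0.23. Podxl, the sialomucin podocalyxin, was at 0.23 (adjusted p = 0.660 by DESeq2), or -0.0039 with total counts as size factors, and Cd34, which stromal cells share, was at -0.13 (adjusted p = 0.865 by DESeq2).

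The 5 calls came from lists of vessel subtypes, and all of them were lost under edgeR and limma-voom. Among capillary genes, Rgcc, a cell cycle regulator found in capillary endothelium and elsewhere, had 647, 973 and 885 normalized counts in WT, against 1017, 1657 and 1373 in DKO. It rose with a log2 fold change of 0.69 (standard error 0.19, adjusted p = 0.0133 by DESeq2), but lost the call without WT 1 (0.242), WT 5 (0.109), DKO 4 (0.231) or DKO 5 (0.159). Kit, a receptor tyrosine kinase that salivary epithelial progenitors and mast cells carry as well, had 920.3, 778 and 803 normalized counts in WT, against 475, 567 and 581 in DKO. It fell with a log2 fold change of -0.63 (standard error 0.13, adjusted p = 4.32e-04 by DESeq2). The highest adjusted p-value with 1 library left out was 0.0284, but the call was lost under edgeR (0.108) and limma-voom (0.110). The other 8 capillary genes were not called.

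Among 10 arterial genes, Notch1, a receptor that many epithelia share, rose from 1350 ± 31.8 to 1775 ± 54.6 normalized counts (SD, n = 3). Its log2 fold change was 0.40 (standard error 0.09, adjusted p = 0.00183 by DESeq2), with no overlap between the groups. The call was lost under edgeR (0.123) and limma-voom (0.121) and with the replicate block (0.0595). It was also lost with total counts as size factors, where the log2 fold change was 0.16 (0.372). The next most abundant, the Notch ligand Jag1, had a log2 fold change of 0.15 (adjusted p = 0.662 by DESeq2), and the sign turned with total counts as size factors. Of 7 venous and activated genes, the leukocyte adhesion molecules Vcam1 and Icam1 fell. Vcam1 had 214, 92.0 and 178 normalized counts in WT, against 83.5, 77.3 and 49.6 in DKO (log2 fold change -1.20, SE 0.32, adjusted p = 0.0119 by DESeq2). Icam1 had 191, 109.6 and 209.6 against 105, 87.8 and 89.9 (log2 fold change -0.85, SE 0.26, adjusted p = 0.0428 by DESeq2). In both, WT 4 lay near the DKO libraries. Leukocytes and fibroblasts can express both genes. The leukocyte gene Ptprc, chosen after its values were seen, had 1499, 617 and 1007 normalized counts in WT, against 544, 357 and 288 in DKO. It was not called (log2 fold change -1.39, SE 0.45, adjusted p = 0.0541 by DESeq2). Its part in these calls was not tested. Leaving out WT 1, WT 5, DKO 4 or DKO 5 ended both calls, with adjusted p-values up to 0.300 for Vcam1 and 0.474 for Icam1, and leaving out DKO 1 ended that of Icam1 (0.0691). With the replicate block that of Icam1 was lost too (0.168). Ephb4 (0.20) and Nr2f2 (0.19), which mark veins, did not pass (adjusted p = 0.551 and 0.801 by DESeq2).

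All 7 lymphatic endothelial genes had negative log2 fold changes, from -1.25 to -0.55, and 0 were called. Stab1, which macrophages also express, was at -0.58 (adjusted p = 0.160 by DESeq2) and the secreted glycoprotein Reln at -0.78 (adjusted p = 0.0607 by DESeq2). Both passed the threshold without WT 4, with adjusted p-values of 0.0165 and 0.00350, and with total counts as size factors (0.0177 and 0.00917), and Reln also did without DKO 1 (0.0445). With other libraries left out, adjusted p-values by DESeq2 reached 0.907 for Stab1 and 0.543 for Reln. The summed lymphatic level was 21.5 to 44.0 CPM in WT and 14.3 to 23.6 CPM in DKO, and leukocyte genes moved in the same direction, as given above. Of 10 mural cell genes, which mark pericytes and vascular smooth muscle, 0 were called and the median was -0.08. Rgs5 (0.19, adjusted p = 0.651 by DESeq2) and Abcc9 (-0.00, adjusted p = 0.998 by DESeq2) were the most abundant. Myoepithelial genes, which share contractile proteins with mural cells, were all 6 called lower, from -0.99 to -0.56, beside 1.88% of all rows. With 1 library left out, the highest adjusted p-value by DESeq2 was 0.124 for Krt14, whose call was thus lost, and at most 0.00498 for the others. Of 7 fibroblast genes, 2 (Dcn and Pdgfra) were called lower, beside the same share of all rows. Both fibroblast calls were lost under edgeR (0.208 and 0.198) and limma-voom (0.224 and 0.230), and without WT 1, WT 5, DKO 4 or DKO 5, with adjusted p-values up to 0.367 for Dcn and 0.437 for Pdgfra. That of Dcn was also lost without WT 4 (0.0541). None of 5 adipocyte genes had enough counts to be tested.

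**Figure D5:**
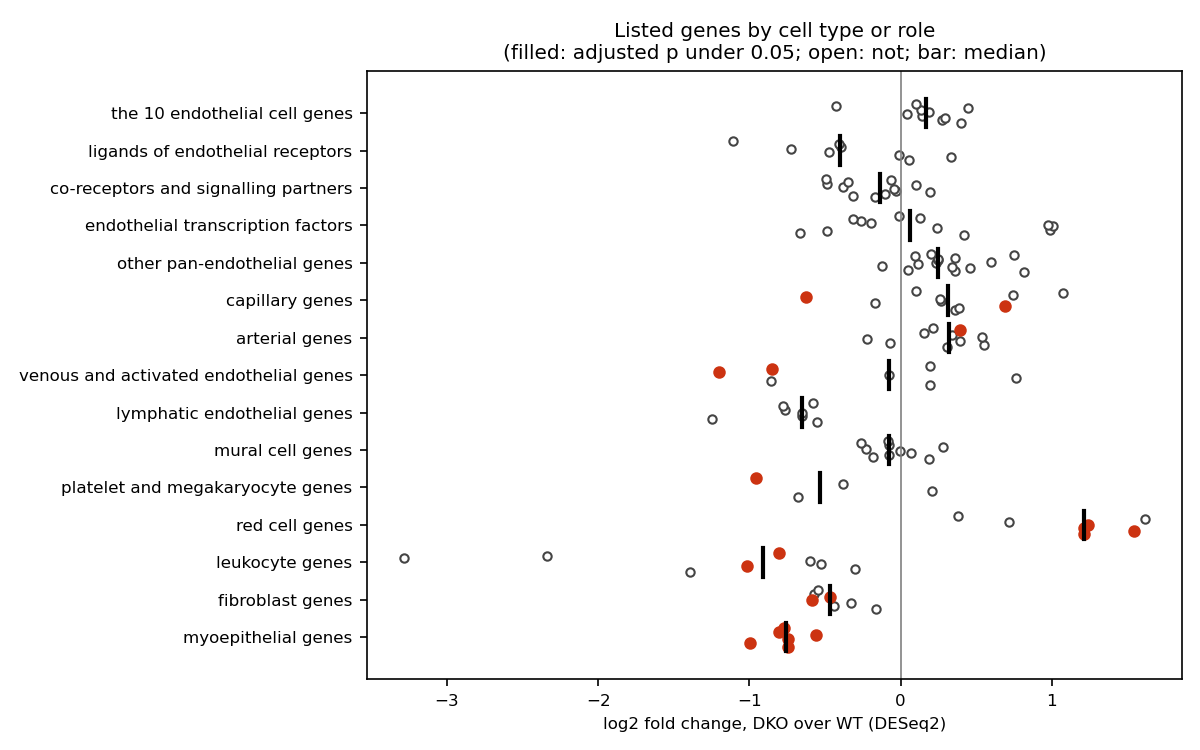
Log2 fold change of DKO over WT (DESeq2) for the tested genes of each list, with filled red points at an adjusted p-value under 0.05, open points above it, and a black bar at each list's median. The 10 endothelial cell genes held no filled point and had a median of 0.17, and the red cell list held 4 filled points on the positive side. Lymphatic genes, with a median of 18.3 normalized counts, lay between -1.25 and -0.55, none of them filled.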

How the data were processed

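RNA of 6 submandibular glands was sequenced by the authors on a HiSeq2500 from unstranded Nextera XT libraries. The submitters' processing notes list STAR 2.5.2a, GRCm38/mm10 and GRCh38, DESeq2, edgeR and limma, with no role given. The counting tool and annotation were not given in the sources used here. The tests used the unfiltered raw count of each gene symbol, as deposited. Their filtered counts and normalized values were not used.

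Rows whose counts over the 6 libraries came to 10 or more were fitted with DESeq2 1.42.0 in R 4.3.3 (median-of-ratios size factors, two-sided Wald test, independent filtering at 0.1). The study's methods name DESeq2 and the Wald test; its fold-change cut-off was not applied, and the count minimum and filtering were chosen here. P-values were adjusted over all rows by the Benjamini-Hochberg method, with a threshold of 0.05. Fold changes are unshrunken, and intervals are 1.96 SE either side. Size factors ran from 0.867 to 1.12. Alternatives were edgeR 4.0.16, limma-voom 3.58.1, other scalings and filters, a replicate block and each library left out. The fits were tested on simulated data.

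Each library counted as 1 replicate. Libraries of one group differed by more than sampling noise (chi-square per degree of freedom 16.8 to 43.4), which cannot show that they came from separate mice. Glands are not stated to come from separate mice, and p-values measure the spread between these samples. Lengths and coordinates are those of GENCODE M21 (GRCm38). Adgrl4 and Adgre1 were matched to their older symbols in RefSeq, Eltd1 and Emr1. Genes sharing near-identical copies, such as globins, are uncertain singly.

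The members and gene lists were chosen with earlier results of these data known. Named genes are the members, the targeted genes, in each other list the 2 most abundant genes and those called (in lists of other cell types, only where a result turns on them), and the 10 rows most like the members' profile. Pf4, Ptprc, Dcpp1, Smgc and genes named for an r above 0.8 were chosen after their values were seen.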

Additional observations from a re-analysis of the deposited data

How the results depend on the processing

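The count of endothelial genes called was 0 in all alternatives but total counts as size factors, which called 1, and the fits that left out 1 library, which called 0 to 2. Their median log2 fold change was -0.060 with total counts, where the median of all rows also moved by -0.23, and 0.068 to 0.35 with 1 library left out. The 93 other vascular genes gave 0 calls under edgeR, 0 under limma-voom, 13 with total counts, 3 with the replicate block and 2 to 11 with 1 library left out, against 5. All rows gave 10, 7, 1469 and 343 calls in the same 4 settings and 149 to 817 with 1 library left out, against 539, and the higher calls were 4.22% of the 1469 against 35.1% of the 539. The summed level of the 10 genes gave a log2 ratio of -0.07 in CPM, 0.17 after TMM scaling, 0.14 without the 10 most abundant rows of each library, and -0.10 to -0.03 with 1 library left out.

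With total counts as size factors the log2 fold changes of Flt1 (-0.081), Tek (-0.20), Tie1 (-0.039), Emcn (-0.10), Eng (-0.13), Vegfa (-0.18), Podxl (-0.0039), Jag1 (-0.077), Ephb4 (-0.038), Nr2f2 (-0.028) and Rgs5 (-0.045) turned negative. Values near 0 also changed sign elsewhere. Epas1 was 0.0082 under limma-voom, 0.0036 with the replicate block and -0.15 to 0.10 with 1 library left out. Abcc9 was 0.0019 under edgeR, 0.0016 with TMM factors and -0.12 to 0.086 with 1 library left out. With 1 library left out, Tek ran from -0.023 to 0.11, Emcn from -0.0098 to 0.29 and Cd34 from -0.22 to 0.045. The cause of these changes was not tested. No count filter, the stricter filter, TMM factors and independent filtering off changed no call among the 10 genes.

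The labels number the glands 1, 4 and 5 in both groups. Deviations from the group means of same-numbered glands had correlations of -0.27, -0.05 and -0.28 over 9898 rows, which gave no sign of pairing by number. Deviations within a group of 3 cancel out, so these correlations depend on each other and cannot exclude a weak pairing. No sample correlated best with its own number. With the replicate block 0 of the 10 endothelial genes were called. Precision is limited by 3 glands per group and by 142 to 733 counts per endothelial gene and library.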
